A study of Homo sapiens with 18 samples.

Results

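A set of 39 genes of the autophagy machinery was followed through RNA-seq of pancreatic cancer cells in which OFD1, a protein of the centriole and of centriolar satellites, was knocked down. The genes were chosen by symbol, as known components of initiation, membrane growth, conjugation, cargo binding and transcriptional control of autophagy, and all 39 were found among the 26668 gene symbols of the expression table. Earlier results of these data were known when the genes were chosen. The study sequenced 3 human lines derived from pancreatic cancer, PANC-1, MIA PaCa-2 and PaTu 8988T, with 3 control and 3 shOFD1 libraries of each, 18 in all. The shOFD1 cells carried a doxycycline-inducible shRNA against OFD1 and were harvested 72 h after doxycycline was added. The controls received no doxycycline, and their labels name a control shRNA, a wild-type genotype and no treatment, while the study's methods describe the same inducible cells given DMSO, so the identity of the control cells was not settled. The series text places the control at day 0 and the knockdown at day 3. An effect of doxycycline, of time in culture or of separately made cells cannot be told apart from the knockdown in any of the comparisons. The labels of replicates 2 and 3 of both PaTu 8988T groups name other lines in the source and cell line fields, and the titles were followed. Whether replicates were separate cultures is not stated, so p-values measure the spread between these libraries, which may be technical.

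Macroautophagy encloses cytoplasm in a double membrane and delivers it to the lysosome. The ULK kinase complex starts the process, a class III phosphatidylinositol 3-kinase complex marks the nascent membrane with phosphatidylinositol 3-phosphate, and WIPI proteins read that lipid while ATG2 and ATG9 supply lipid for growth. Ubiquitin-like conjugation then attaches ATG8 proteins (the LC3 and GABARAP families) to the membrane, where cargo receptors bind them, and TFEB and TFE3 are transcription factors that switch on autophagy and lysosomal genes when nutrients are short. Pancreatic cancer is known for high basal autophagy, and the pool of OFD1 at centriolar satellites is known to be a cargo and a regulator of autophagy. Messenger RNA levels do not measure autophagic flux.

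Values are FPKM, the reads on a gene after scaling for gene length and library depth. The reads counted per library, recovered from the steps between FPKM values, ranged from 32484355 to 39783986 with a median of 36927700. A library's count for a single autophagy gene ranged from 41 reads for TFEB in MIA PaCa-2 to 117435 for SQSTM1 in PaTu 8988T. Changes are log2 fold changes of shOFD1 over control on FPKM plus 0.1, given with limma's standard error, and a gene was said to rise or fall where the Benjamini-Hochberg adjusted p, over all genes tested in the line, was below 0.05. Genes with a mean under 1 FPKM in a line were not tested there. This left all 39 autophagy genes in PANC-1, 37 in MIA PaCa-2, where ATG10 and TFEB were too low, and 38 in PaTu 8988T, where TFEB was too low.

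One library stood apart. Control replicate 2 of MIA PaCa-2 differed from the other controls of that line by a median absolute difference over genes of 0.393 on the log2 scale, against 0.20 and 0.203 for controls 1 and 3 of the line and 0.051 to 0.093 for all other libraries. For MIA PaCa-2, counts of calls are therefore given with and without it, and single genes where it decided the call, the direction or the size. The epithelial keratins KRT8 and KRT18 were between 316 and 1189 FPKM in all 18 libraries. Of the epithelial markers, EPCAM and CDH1 were at or below 0.0991 FPKM in every MIA PaCa-2 library, and CDH1 was at or below 0.378 FPKM in PaTu 8988T. The sum over 5 epithelial markers was lower after induction in 2 lines, at 1359 to 1391 FPKM against 1615 to 2195 FPKM in the MIA PaCa-2 controls and at 837.7 to 909.2 FPKM against 1045 to 1068 FPKM in PaTu 8988T, where KRT19 was at or near 0 in all 6 libraries, and it was 917.4 to 936.5 FPKM against 931.0 to 951.6 FPKM in PANC-1.

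Markers of other cell types moved with the knockdown, upward in MIA PaCa-2. The summed level of 3 leukocyte markers was 49.3 to 67.4 FPKM in its controls and 73.2 to 77.0 FPKM in its shOFD1 libraries. That sum came from CD68 and PTPRC, and CD3E was at 0 in all 6. The sum over 5 fibroblast markers, nearly all COL1A2, was 151.9 to 182.2 FPKM in the controls and 204.5 to 205.2 FPKM after induction. In PANC-1 and PaTu 8988T the leukocyte sum, nearly all CD68, was lower after induction, at 17.0 to 19.5 and 9.77 to 11.7 FPKM against 32.0 to 37.7 and 13.6 to 13.9 FPKM in the controls. The fibroblast sum, nearly all COL1A1, was 25.5 to 26.9 FPKM in the PANC-1 controls and 22.4 to 23.4 FPKM after induction, and 0.124 FPKM or less in PaTu 8988T. Endothelial, acinar and islet markers each summed to 1.055 FPKM or less in every library. The part of these markers in the results on the autophagy genes was not tested.

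OFD1 itself was lower in the shOFD1 libraries of all 3 lines. In PANC-1 it measured 5.50, 5.12 and 5.67 FPKM in controls 1 to 3 and 2.80, 2.27 and 2.58 FPKM in shOFD1 replicates 1 to 3, a change of -1.07 ± 0.09 (adjusted p = 2.7e-06). MIA PaCa-2 had 3.09, 2.27 and 3.20 FPKM before and 1.76, 1.74 and 1.97 FPKM after induction, a change of -0.61 ± 0.16 (adjusted p = 0.0232), or -0.76 (adjusted p = 8.7e-05) without control replicate 2. Leaving out control 1, control 3 or any shOFD1 library of that line lost the call, as did dropping the filter on low values. In PaTu 8988T the controls were at 2.14, 1.93 and 2.12 FPKM and the shOFD1 libraries at 0.986, 0.894 and 0.854 FPKM, a change of -1.10 ± 0.10 (adjusted p = 5.47e-05). OFD1 was tested there only because the controls brought its mean past the filter, with a mean of 0.911 FPKM after induction. The groups did not overlap in any line, and an exact two-sided permutation test of 3 libraries against 3 gave p = 0.1 in each, the smallest it can give. In bulk RNA, a lower share of cells with OFD1 and less OFD1 RNA per cell cannot be told apart.

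The autophagy genes changed most often upward, with a different extent in each line. In PANC-1, 23 of 39 rose, where 40.1% of all genes tested rose, and 7 fell, where 32.2% of all genes fell. In MIA PaCa-2, 16 of 37 rose against 18.7% of all genes, and only ATG9A fell against 21.7%. In PaTu 8988T, 9 of 38 rose against 20.9% of all genes, and 3 fell against 18.5%. As percentages, 59.0, 43.2 and 23.7 of the autophagy genes tested rose in PANC-1, MIA PaCa-2 and PaTu 8988T, so the share in PaTu 8988T was near that of all genes. The genes were chosen with earlier results of these data known, so these shares describe the set and do not test it. The MIA PaCa-2 counts rested on the control that stood apart: without control replicate 2, 26 rose and 6 fell, where 35.4% of all genes rose and 39.8% fell. Some calls were lost when a single library was left out. Leaving out 1 library at a time lost 9 of the 17 calls in MIA PaCa-2 (ULK2, ATG13, PIK3C3, ATG2A, ATG9A, VMP1, ATG4A, CALCOCO2 and TAX1BP1, with highest adjusted p of 0.0511 to 0.153), 4 of 30 in PANC-1 (RB1CC1, ATG4C, ATG4D and TAX1BP1, 0.052 to 0.143) and 3 of 12 in PaTu 8988T (ULK1, ATG5 and GABARAPL2, 0.0588 to 0.166). One fit of all 18 libraries lost 7 calls in PANC-1 (ULK1, RB1CC1, ATG4C, ATG4D, MAP1LC3B, SQSTM1 and TAX1BP1), 7 in PaTu 8988T (ULK1, ATG101, ATG9A, VMP1, ATG4B, ATG5 and GABARAPL2) and 0 in MIA PaCa-2.

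**Figure D1:**
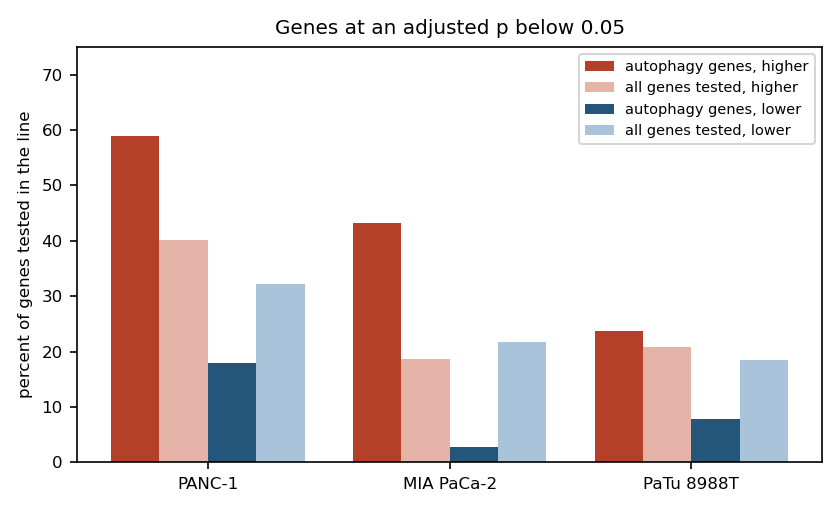
Percent of the genes tested in each line that rose or fell at an adjusted p below 0.05, for the autophagy genes (dark bars) and for all genes tested (light bars). In each line the dark red bar is the higher of the red pair and the dark blue bar is the lower of the blue pair, with the red pair nearly level in PaTu 8988T, at 23.7% and 20.9%.

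Changes were small for most of the 39 genes. At the study's threshold, an adjusted p below 0.05 and a change of over 2-fold, 3 genes rose in MIA PaCa-2, namely WIPI1, GABARAPL1 and OPTN, where 4.07% of all genes did. Without control replicate 2, ATG2A joined them, making 4, where 4.17% of all genes did. By limma no autophagy gene passed that threshold in PANC-1 or PaTu 8988T, at the adjusted p or at an unadjusted p below 0.05, and the shares of all genes that rose past it were 1.75% and 0.159%. No autophagy gene fell past it in any line by either p, where 4.84% of all genes fell in PANC-1, 3.68% in MIA PaCa-2 (3.78% without control replicate 2) and 0.841% in PaTu 8988T. The median change over the autophagy genes tested was 0.21 in PANC-1, 0.30 in MIA PaCa-2 and 0.071 in PaTu 8988T, beside 0.06, -0.031 and 0.028 over all genes. The median in PANC-1 was 0.15 after median-of-ratios scaling, which brought the median of all genes to 0.0039. The change was above 0 for 30 of 39, 31 of 37 and 27 of 38 autophagy genes, and for 55.6%, 47.8% and 54.8% of all genes.

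**Figure D2:**
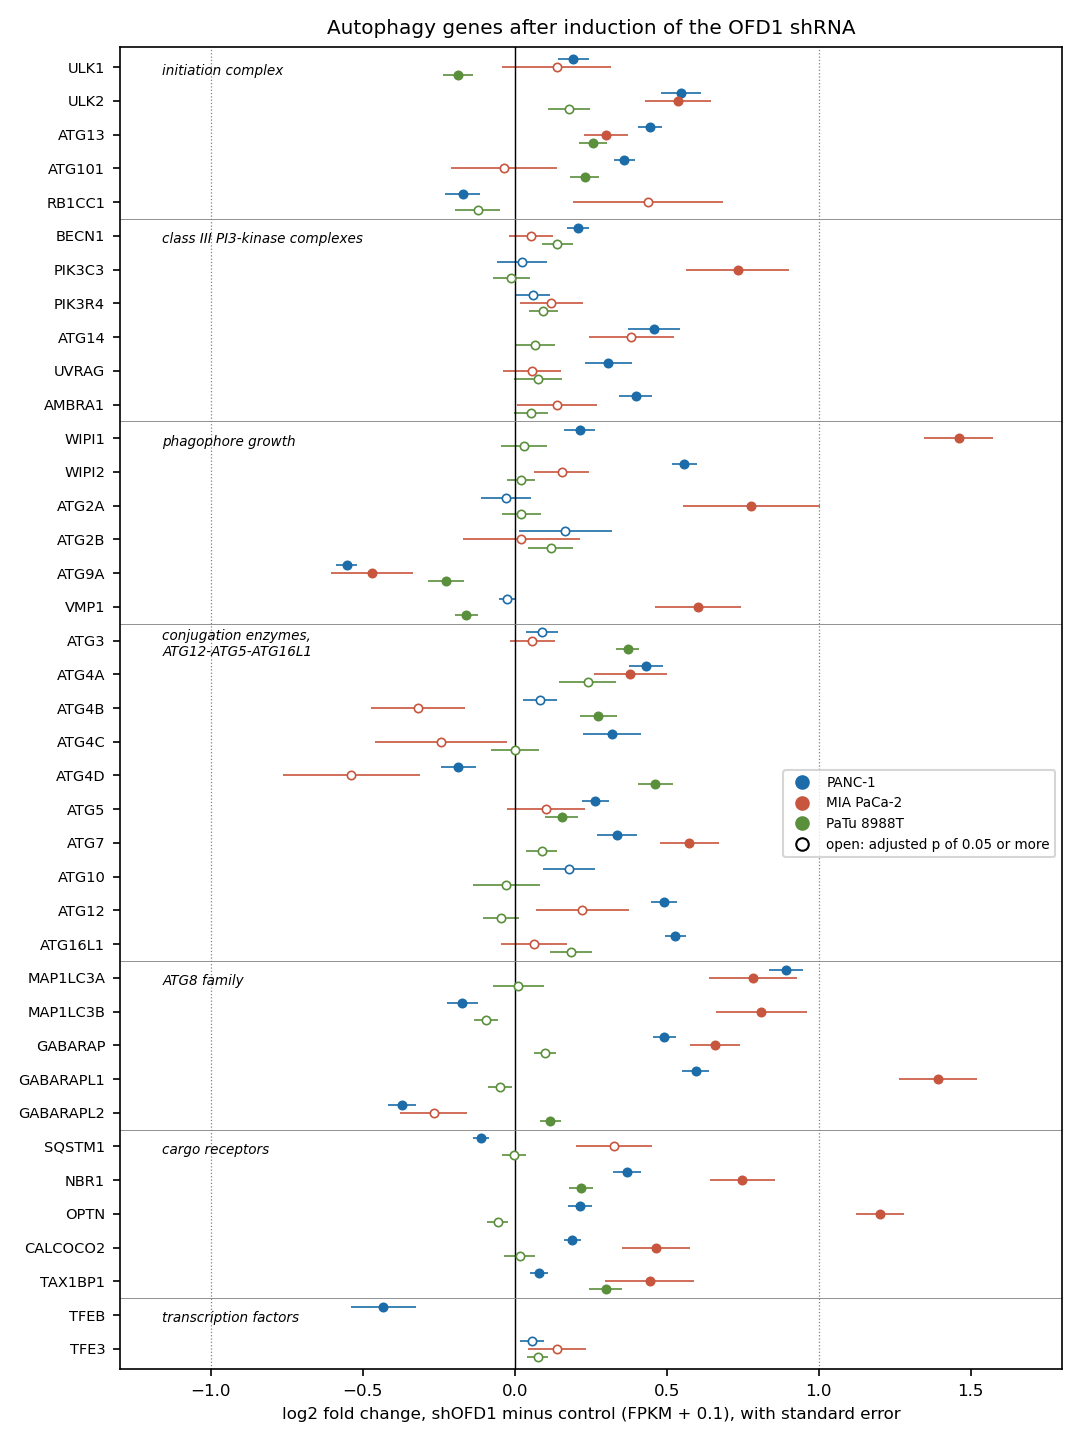
Log2 fold change of each autophagy gene (points) with its standard error (bars) in PANC-1, MIA PaCa-2 and PaTu 8988T, grouped by role, on FPKM plus 0.1. Filled points have an adjusted p below 0.05 and dotted lines mark a 2-fold change. The points past the dotted line are WIPI1, GABARAPL1 and OPTN in MIA PaCa-2, and ATG9A is the only gene with filled points below 0 in all 3 lines.

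Of the 5 genes of the initiation complex, 4 rose and 1 fell in PANC-1, 2 rose in MIA PaCa-2 (all 5 without control replicate 2), and 2 rose and 1 fell in PaTu 8988T. These and the following counts stand beside the shares of all genes that rose and fell, 40.1% and 32.2% in PANC-1, 18.7% and 21.7% in MIA PaCa-2 (35.4% and 39.8% without control replicate 2) and 20.9% and 18.5% in PaTu 8988T. ATG13, the adaptor that binds the ULK kinases, rose in every line. Its PANC-1 libraries measured 15.5, 16.4 and 16.0 FPKM in the controls and 21.2, 22.1 and 21.9 FPKM after induction, a change of 0.44 ± 0.04 (adjusted p = 4.01e-06). The MIA PaCa-2 libraries measured 17.3, 17.2 and 16.9 FPKM and 21.6, 20.8 and 20.9 FPKM, a change of 0.30 ± 0.072 (adjusted p = 0.0169, or 8.15e-05 without control replicate 2). Leaving out any other library of that line lost the call (adjusted p up to 0.0959). The PaTu 8988T libraries measured 17.6, 17.0 and 16.0 FPKM and 20.4, 19.8 and 20.2 FPKM, a change of 0.26 ± 0.047 (adjusted p = 0.00239). All shOFD1 libraries lay above all controls of their line, with the widest gap in PANC-1, whose effect exceeded that in PaTu 8988T by 0.19 ± 0.066 (adjusted p = 0.0369). ATG13 lies on chromosome 11, at 46617527 to 46674818 of GRCh38, and overlaps HARBI1 on the opposite strand.

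The other initiation genes were not called in every line with all libraries. ULK2, the paralogue of ULK1, rose from a mean of 4.60 ± 0.260 to 6.76 ± 0.194 FPKM (SD, n = 3) in PANC-1, a change of 0.55, and by 0.54 in MIA PaCa-2, while its change of 0.18 in PaTu 8988T missed the threshold (adjusted p = 0.0668). ATG101, which stabilises ATG13, rose by 0.36 in PANC-1 and 0.23 in PaTu 8988T and had a change of -0.036 ± 0.17 in MIA PaCa-2 (adjusted p = 0.882), which turned to 0.17 (adjusted p = 0.00696) without control replicate 2. RB1CC1, the FIP200 scaffold of the complex, fell by 0.17 in PANC-1, and its change was 0.44 ± 0.25 in MIA PaCa-2 and -0.12 ± 0.075 in PaTu 8988T, neither past the threshold. Without control replicate 2 the MIA PaCa-2 change of RB1CC1 was 0.14 and passed (adjusted p = 0.043).

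ULK1, the kinase whose activity starts autophagy, was called in opposite directions in 2 lines. In PANC-1 its controls were at 19.1, 21.5 and 20.3 FPKM and its shOFD1 libraries at 22.2, 24.0 and 23.5 FPKM, a change of 0.19 ± 0.051 (adjusted p = 0.00631). In PaTu 8988T the controls were at 13.3, 13.7 and 13.7 FPKM and the shOFD1 libraries at 11.3, 12.4 and 12.1 FPKM, a change of -0.19 ± 0.05 (adjusted p = 0.016). The groups did not overlap in either line. Both calls were lost with all 18 libraries in one fit, and that in PaTu 8988T also on leaving out 1 library (adjusted p up to 0.0588). The MIA PaCa-2 controls, 5.56, 8.14 and 5.08 FPKM, spanned all of its shOFD1 values, 6.76, 6.67 and 6.83 FPKM, with control 2 above them and a change of 0.14 (adjusted p = 0.571), or of 0.34 without that library (adjusted p = 0.000664). The test of the difference between PANC-1 and PaTu 8988T gave 0.38 ± 0.17 and missed the threshold (adjusted p = 0.089), and it passed in the fit without MIA PaCa-2 control replicate 2 (adjusted p = 0.000208).

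Of the 6 genes of the class III PI3-kinase complexes, 4 rose in PANC-1, 1 rose in MIA PaCa-2 (3 without control replicate 2) and none passed the test in PaTu 8988T, where 1 had an unadjusted p below 0.05. ATG14, which directs the kinase complex to sites of autophagosome formation, rose from 4.66 ± 0.548 to 6.41 ± 0.206 FPKM in PANC-1, a change of 0.46. AMBRA1, a scaffold that binds BECN1, rose by 0.40 in the same line, UVRAG, the subunit that replaces ATG14 in the endosomal complex, by 0.31, and BECN1, the regulatory subunit, by 0.21. Without control replicate 2, ATG14 and AMBRA1 also rose in MIA PaCa-2, by 0.24 (adjusted p = 0.00573) and 0.28 (adjusted p = 0.000125). The changes of the 4 genes in PaTu 8988T lay between 0.053 and 0.14. PIK3C3, the lipid kinase VPS34 itself, rose in MIA PaCa-2, from 2.82 ± 0.590 to 4.68 ± 0.221 FPKM, a change of 0.73 ± 0.17 (adjusted p = 0.0144), and by 0.55 (adjusted p = 9.72e-05) without control replicate 2. Its changes were 0.024 ± 0.081 in PANC-1 and -0.012 ± 0.061 in PaTu 8988T. PIK3R4, the VPS15 subunit that anchors the kinase, stayed within 0.06 to 0.12 and passed the test in none of the 3 lines, with or without control replicate 2 of MIA PaCa-2.

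Of the 6 genes of phagophore growth, 2 rose and 1 fell in PANC-1, 3 rose and 1 fell in MIA PaCa-2 (4 and 2 without control replicate 2), and 2 fell in PaTu 8988T. WIPI1, which binds phosphatidylinositol 3-phosphate on the growing membrane, had the largest change of any autophagy gene in any line with all libraries, and the second largest, after GABARAPL1, without control replicate 2 of MIA PaCa-2. Its MIA PaCa-2 controls were at 2.03, 1.88 and 2.30 FPKM and its shOFD1 libraries at 5.61, 5.82 and 6.14 FPKM, a change of 1.46 ± 0.11 (adjusted p = 0.000315), and 1.40 (adjusted p = 7.88e-07) without control replicate 2. Every knockdown library of MIA PaCa-2 was more than 2 times as high as every control. In PANC-1 the controls were at 10.3, 9.67 and 9.48 FPKM and the shOFD1 libraries at 11.4, 11.2 and 11.6 FPKM, a change of 0.21 ± 0.05 (adjusted p = 0.00323), again without overlap. The PaTu 8988T libraries overlapped, with 3.50, 3.17 and 3.29 FPKM in controls and 3.17, 3.56 and 3.45 FPKM after induction, a change of 0.031 ± 0.075 (adjusted p = 0.767). WIPI1 lies on the minus strand of chromosome 17, at 68420948 to 68457513 of GRCh38, and overlaps ARSG on the opposite strand. Whether reads were counted by strand is not stated, so reads of such overlapping genes may not be separated.

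WIPI2, which recruits ATG16L1 to the membrane, rose in PANC-1. Its controls were at 18.4, 20.0 and 18.9 FPKM and its shOFD1 libraries at 28.4, 28.3 and 27.8 FPKM, a change of 0.56 ± 0.041 (adjusted p = 9.28e-07), with a wide gap between the groups. In MIA PaCa-2 the change was 0.15 ± 0.089 (adjusted p = 0.211, and 0.000181 without control replicate 2), and in PaTu 8988T it was 0.019 ± 0.046 (adjusted p = 0.761). The change in PANC-1 was larger than that in PaTu 8988T by 0.54 ± 0.085 (adjusted p = 0.000135) and than that in MIA PaCa-2 by 0.40 ± 0.085 (adjusted p = 0.00132).

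Of the lipid transfer genes, ATG2A was called in MIA PaCa-2 with all libraries and ATG2B was not. ATG2A measured 7.43, 13.5 and 7.84 FPKM in the controls and 15.5, 15.7 and 16.6 FPKM after induction, a change of 0.78 ± 0.22 (adjusted p = 0.0328). Control 2 lay close to the knockdown libraries, and without it the change was 1.05 (adjusted p = 2.69e-07). ATG2B had a change of 0.021 ± 0.19 in that line (adjusted p = 0.938), which turned to -0.19 and passed the test without control replicate 2 (adjusted p = 0.0442). With all libraries it passed in none of the 3 lines. In PANC-1 and PaTu 8988T the changes of ATG2A were -0.029 and 0.022, both short of the threshold.

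ATG9A, the membrane protein that scrambles lipids and seeds autophagosomes, fell in all 3 lines, with the call in 2 of them lost under some settings. In PANC-1 it measured 40.3, 39.3 and 39.03 FPKM in the controls and 26.1, 27.2 and 27.6 FPKM in the shOFD1 libraries, a change of -0.55 ± 0.035 (adjusted p = 2.83e-07). In MIA PaCa-2 it measured 29.5, 40.5 and 30.4 FPKM and 22.5, 24.6 and 24.6 FPKM, a change of -0.47 ± 0.13 (adjusted p = 0.0315), or -0.33 (adjusted p = 0.000246) without control replicate 2. Leaving out any shOFD1 library lost that call (adjusted p up to 0.116), as did dropping the filter on low values (adjusted p = 0.0532). The third line, PaTu 8988T, had 29.4, 30.1 and 33.8 FPKM and 25.6, 28.1 and 25.9 FPKM, a change of -0.23 ± 0.059 (adjusted p = 0.0145), and the call was lost without the filter (adjusted p = 0.0513) and with all 18 libraries in one fit (adjusted p = 0.104). Every knockdown library lay below every control of its line, with the widest gap in PANC-1. ATG9A lies on the minus strand of chromosome 2, at 219219380 to 219229717 of GRCh38, and overlaps AC068946.2 on the same strand.

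VMP1, an endoplasmic reticulum scramblase needed for autophagosome closure, moved in opposite directions in MIA PaCa-2 and PaTu 8988T. The MIA PaCa-2 controls were at 36.6, 27.1 and 38.6 FPKM and the shOFD1 libraries at 50.5, 53.6 and 49.7 FPKM, a change of 0.60 ± 0.14 (adjusted p = 0.0151), or 0.44 (adjusted p = 1.56e-05) without control replicate 2. The PaTu 8988T controls were at 40.1, 39.7 and 38.0 FPKM and the shOFD1 libraries at 35.9, 34.6 and 35.0 FPKM, a change of -0.16 ± 0.039 (adjusted p = 0.01). Neither pair of groups overlapped, and the difference between the effects was -0.76 ± 0.13 (adjusted p = 0.00012). In PANC-1 VMP1 was at 56.1 and 55.1 FPKM in the 2 groups, within the spread of its libraries.

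Conjugation genes made up 10 of the 39. Of these, 6 rose and 1 fell in PANC-1, 2 of 9 tested rose in MIA PaCa-2 (4 rose and 3 fell without control replicate 2), and 4 of 10 rose in PaTu 8988T. ATG16L1, which places the ATG12-ATG5 conjugate on the membrane, rose in PANC-1 from 15.7, 16.2 and 16.2 FPKM to 23.2, 23.2 and 23.1 FPKM, a change of 0.53 ± 0.036 (adjusted p = 5.55e-07). The 3 libraries of each group were nearly equal and the groups far apart. In MIA PaCa-2 its change was 0.063 ± 0.11 and in PaTu 8988T 0.18 ± 0.068, neither past the threshold, while without control replicate 2 the MIA PaCa-2 change was 0.15 and passed (adjusted p = 0.0186). ATG12, the ubiquitin-like protein joined to ATG5, also rose in PANC-1, by 0.49, and had changes of 0.22 and -0.045 in the other lines. ATG5 rose by 0.27 in PANC-1 and 0.15 in PaTu 8988T.

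ATG7, the E1-like enzyme of both conjugation systems, rose by 0.34 in PANC-1 and 0.57 in MIA PaCa-2, and its change of 0.088 in PaTu 8988T was short of the threshold. ATG10, the E2-like enzyme for ATG12, passed the test in neither line where it was tested (adjusted p = 0.0813 in PANC-1 and 0.854 in PaTu 8988T), and in MIA PaCa-2 it measured 0.807, 0.781 and 0.748 FPKM in the controls and 0.703, 0.749 and 0.788 FPKM after induction, overlapping ranges below the filter.

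ATG3, the E2-like enzyme that joins ATG8 proteins to phosphatidylethanolamine, had the smallest p of any autophagy gene in PaTu 8988T. Its controls there were at 20.1, 19.6 and 20.2 FPKM and its shOFD1 libraries at 25.9, 25.7 and 26.0 FPKM, a change of 0.37 ± 0.038 (adjusted p = 9.25e-05). The groups were separated by several times the range within either. Its changes of 0.088 ± 0.053 in PANC-1 and 0.057 ± 0.074 in MIA PaCa-2 missed the threshold, the latter passing at 0.093 (adjusted p = 0.0471) without control replicate 2. The change in PaTu 8988T was larger than that in MIA PaCa-2 by 0.31 ± 0.078 (adjusted p = 0.00308), and the effect in PANC-1 minus that in PaTu 8988T was -0.28 ± 0.078 (adjusted p = 0.00975).

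The 4 ATG4 proteases, which trim ATG8 proteins before conjugation and release them afterwards, behaved differently from one another. ATG4A rose by 0.43 in PANC-1 and 0.38 in MIA PaCa-2, ATG4B by 0.27 in PaTu 8988T, and ATG4C by 0.32 in PANC-1. In MIA PaCa-2 the changes of ATG4B and ATG4C were -0.32 and -0.24, short of the threshold, and both fell without control replicate 2, by 0.15 (adjusted p = 0.0283) and 0.49 (adjusted p = 0.000789). ATG4D fell in PANC-1, from 9.74, 10.5 and 11.0 FPKM to 9.35, 9.18 and 8.91 FPKM, a change of -0.19 ± 0.057 (adjusted p = 0.0137). It rose in PaTu 8988T, from 12.0, 10.9 and 10.9 FPKM to 14.7, 15.7 and 16.3 FPKM, a change of 0.46 ± 0.059 (adjusted p = 0.000328). The groups did not overlap in either line, in opposite orders, and the difference between the effects was -0.65 ± 0.21 (adjusted p = 0.0274). MIA PaCa-2 had 14.2, 26.1 and 15.5 FPKM in its controls and 11.8, 12.4 and 12.7 FPKM in its shOFD1 libraries, which lay below all controls, with a change of -0.54 ± 0.22 (adjusted p = 0.0981) and of -0.27 (adjusted p = 0.00151) without control replicate 2.

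Promoters were searched for the E-box CACGTG, the core of the sites bound by TFEB and TFE3. Of the 39 genes, 35 had a promoter of 300 bases in RefSeq (GRCh38.p14), from 250 bases before to 50 after the start. The E-box was found on either strand in 2 of the 35, or 5.71%, and in 7.43% of 27305 promoters of all genes. The longer TCACGTGA, which contains the E-box, was found in ATG3 alone, or 2.86%, and in 1.04% of all promoters, and TGATGNAA, a response element of C/EBP and ATF factors, was found in none of the 35 and in 3.67% of all. The E-boxes were in ATG3 and ATG14. The stretches of 30 bases that hold the matches are printed to show the repeated E-box of ATG3 beside the single one of ATG14, 5′ to 3′ on the gene's strand with the E-box in capitals. The first is chr3:112561951-112561980 and the second is chr14:55411834-55411863, both on the minus strand.
ATG3: CACGTGccgggagagtctagtgtCACGTGa
ATG14: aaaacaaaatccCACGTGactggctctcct
A match describes these letters only. ATG3, with 2 copies, rose in PaTu 8988T and ATG14 in PANC-1, and without control replicate 2 both also passed the test in MIA PaCa-2 (adjusted p = 0.0471 and 0.00573).

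All 5 ATG8 genes of the set changed in PANC-1, 3 upward and 2 downward. In MIA PaCa-2, 4 of 5 rose (4 rose and 1 fell without control replicate 2), and 1 of 5 rose in PaTu 8988T. GABARAPL1, a GABARAP paralogue, rose in MIA PaCa-2 from 4.54, 5.93 and 4.52 FPKM to 13.0, 13.5 and 13.0 FPKM, a change of 1.39 ± 0.13 (adjusted p = 0.000524), or 1.52 (adjusted p = 2.89e-08) without control replicate 2. In PANC-1 it rose from 17.6, 19.2 and 19.4 FPKM to 28.0, 28.9 and 28.1 FPKM, a change of 0.59 ± 0.044 (adjusted p = 1.01e-06). The PaTu 8988T controls were at 17.9, 17.8 and 17.7 FPKM and the shOFD1 libraries slightly below them at 17.0, 17.2 and 17.4 FPKM, a change of -0.05 ± 0.039 that missed the threshold (adjusted p = 0.34). GABARAPL1 lies on chromosome 12, at 10212458 to 10223130 of GRCh38. The knockdown libraries lay far above the controls in MIA PaCa-2 and PANC-1 and just under them in PaTu 8988T.

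MAP1LC3A, which encodes LC3A, had the largest change of any autophagy gene in PANC-1. It measured 11.2, 11.3 and 9.91 FPKM in the controls and 20.3, 19.8 and 20.2 FPKM in the shOFD1 libraries, a change of 0.89 ± 0.055 (adjusted p = 2.72e-07). In MIA PaCa-2 it measured 9.23, 12.9 and 9.43 FPKM and 18.5, 18.6 and 16.9 FPKM, a change of 0.78 ± 0.14 (adjusted p = 0.00637), or 0.94 (adjusted p = 6.78e-07) without control replicate 2. In both lines the knockdown libraries lay above all controls. The PaTu 8988T groups overlapped, at 11.3, 10.8 and 12.0 FPKM and 10.9, 13.1 and 10.4 FPKM, a change of 0.011 ± 0.084 (adjusted p = 0.927).

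MAP1LC3B, which encodes the LC3B protein used as the usual marker of autophagosomes, rose in MIA PaCa-2 and fell in PANC-1. The MIA PaCa-2 controls were at 65.2, 44.1 and 62.5 FPKM and the shOFD1 libraries at 97.2, 98.8 and 101 FPKM, a change of 0.81 ± 0.15 (adjusted p = 0.00645), or 0.63 (adjusted p = 2.54e-07) without control replicate 2. The PANC-1 controls were at 58.0, 55.2 and 50.3 FPKM and the shOFD1 libraries at 46.0, 49.4 and 49.4 FPKM, a change of -0.17 ± 0.051 (adjusted p = 0.0118). PaTu 8988T had 81.6, 79.1 and 75.2 FPKM and 74.3, 73.3 and 73.1 FPKM, a change of -0.094 ± 0.039 that missed the threshold (adjusted p = 0.0803). The groups were apart in every line, upward in MIA PaCa-2 and downward by a small step in the other two. MAP1LC3B2, a near-identical copy whose reads may be shared with it, went from a mean of 2.66 to 4.23 FPKM in MIA PaCa-2, so its values and those of MAP1LC3B are uncertain where reads matched both.

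GABARAP, the founding member of its subfamily, rose in PANC-1 from 92.7, 89.4 and 86.0 FPKM to 124, 132 and 121 FPKM, a change of 0.49 ± 0.038 (adjusted p = 1.29e-06). In MIA PaCa-2 it rose from 67.1, 59.1 and 69.9 FPKM to 104, 105 and 99.5 FPKM, a change of 0.66 ± 0.082 (adjusted p = 0.0015), or 0.59 (adjusted p = 6.75e-07) without control replicate 2. PaTu 8988T had 68.6, 69.8 and 71.6 FPKM and 74.3, 77.6 and 73.2 FPKM, a change of 0.099 ± 0.037 (adjusted p = 0.0602). All knockdown libraries were above all controls of their line, by much less in PaTu 8988T, where the call was missed. GABARAP overlaps AC120057.2 on the same strand.

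GABARAPL2, also called GATE-16, fell in PANC-1 from 42.5, 45.7 and 42.6 FPKM to 31.9, 35.8 and 33.5 FPKM, a change of -0.37 ± 0.047 (adjusted p = 5.32e-05). It rose in PaTu 8988T from 67.1, 64.9 and 65.3 FPKM to 70.1, 72.6 and 71.2 FPKM, a change of 0.12 ± 0.034 (adjusted p = 0.024). In MIA PaCa-2 the change was -0.27 ± 0.11 (adjusted p = 0.0923), and without control replicate 2 it was -0.38 (adjusted p = 1.59e-05). GABARAPL2 went down in PANC-1, where GABARAP, GABARAPL1 and MAP1LC3A went up.

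**Figure D3:**
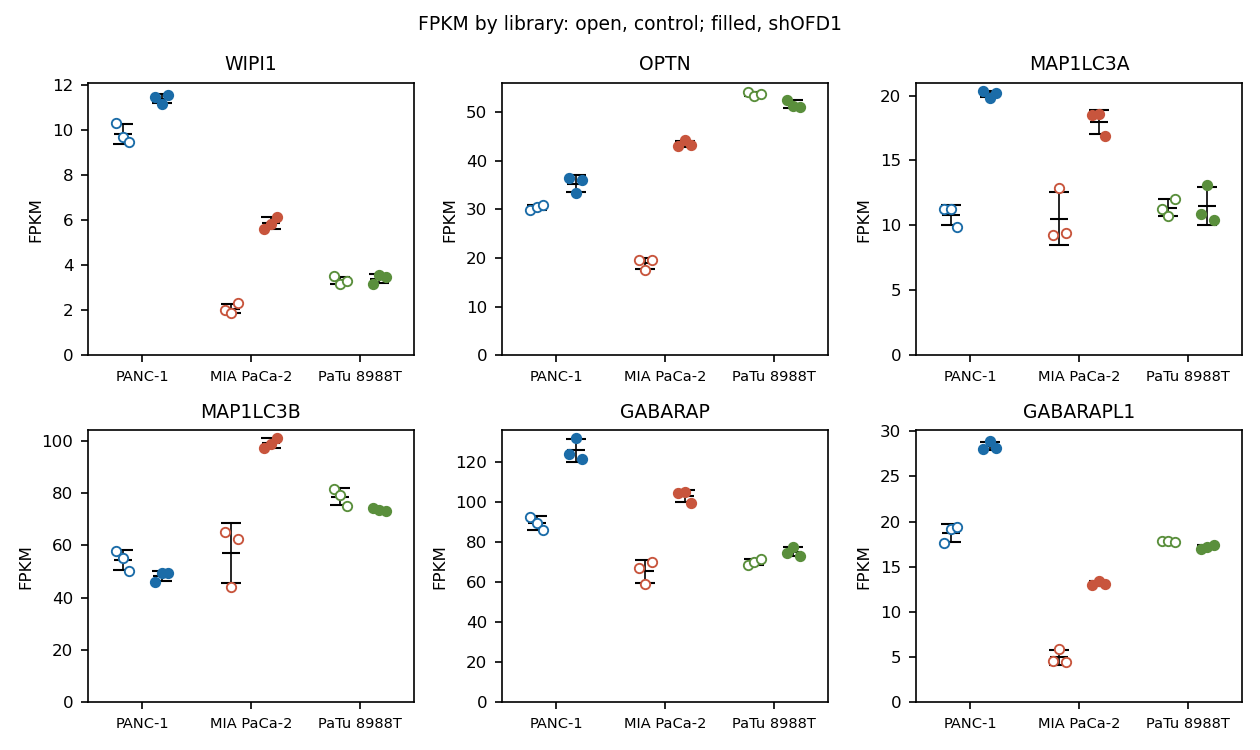
FPKM of WIPI1, OPTN and 4 ATG8 genes in each library (points) with the mean and SD of 3 libraries (black bars), in controls (open) and shOFD1 libraries (filled) of the 3 lines. In MIA PaCa-2 all filled points lie above all open points for each of the 6 genes, while in PaTu 8988T the groups overlap or lie close together. Levels are compared within a line.

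Of the 5 cargo receptors, 4 rose and 1 fell in PANC-1, 4 rose in MIA PaCa-2 (all 5 without control replicate 2) and 2 rose in PaTu 8988T. OPTN, a ubiquitin-binding receptor of mitochondria and bacteria, rose in MIA PaCa-2 from 19.5, 17.5 and 19.6 FPKM to 43.0, 44.2 and 43.2 FPKM, a change of 1.20 ± 0.078 (adjusted p = 0.000192), or 1.15 (adjusted p = 1.75e-08) without control replicate 2. In PANC-1 it rose from 29.9, 30.4 and 30.9 FPKM to 36.5, 33.4 and 36.0 FPKM, a change of 0.21 ± 0.04 (adjusted p = 0.000833). PaTu 8988T had 54.1, 53.3 and 53.8 FPKM in the controls and 52.6, 51.3 and 51.1 FPKM after induction, a change of -0.056 ± 0.034 that missed the threshold (adjusted p = 0.215). The order of control and knockdown libraries was reversed in PaTu 8988T, with a gap of under 1 FPKM. OPTN lies on chromosome 10, at 13099449 to 13138308 of GRCh38, and overlaps CCDC3 on the opposite strand.

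NBR1, a receptor of ubiquitinated aggregates and peroxisomes, rose in all 3 lines. In PANC-1 it went from 17.6, 17.4 and 18.2 FPKM to 23.7, 21.6 and 23.6 FPKM, a change of 0.37 ± 0.046 (adjusted p = 5.07e-05). The second line, MIA PaCa-2, had 18.3, 14.4 and 17.7 FPKM and 27.8, 28.3 and 28.4 FPKM, a change of 0.75 ± 0.11 (adjusted p = 0.00251), or 0.64 (adjusted p = 5.25e-07) without control replicate 2. PaTu 8988T libraries gave 22.2, 23.2 and 22.7 FPKM and 26.0, 26.4 and 26.9 FPKM, a change of 0.22 ± 0.039 (adjusted p = 0.00233). No knockdown library overlapped a control of its line. NBR1 lies on chromosome 17, at 43170481 to 43211689 of GRCh38.

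TAX1BP1, a receptor that links ubiquitinated cargo to LC3, rose by a small amount in PANC-1, from 56.0, 55.8 and 57.2 FPKM to 58.8, 58.3 and 61.6 FPKM, a change of 0.08 ± 0.03 (adjusted p = 0.0374). After median-of-ratios scaling that change was 0.023 and the call was lost (adjusted p = 0.525). In MIA PaCa-2 TAX1BP1 went from 41.2, 30.4 and 44.6 FPKM to 50.9, 54.4 and 50.7 FPKM, a change of 0.44 ± 0.15 (adjusted p = 0.0489), or 0.28 (adjusted p = 0.000495) without control replicate 2. PaTu 8988T had 20.6, 21.2 and 19.4 FPKM and 25.9, 23.5 and 26.0 FPKM, a change of 0.30 ± 0.054 (adjusted p = 0.00237). The groups were apart in every line, by the least in PANC-1.

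SQSTM1, which encodes the receptor p62, was the most abundant autophagy transcript in every line. In PANC-1 it fell slightly, from 273, 280.3 and 267 FPKM to 259, 253 and 247 FPKM, a change of -0.11 ± 0.025 (adjusted p = 0.00239). The MIA PaCa-2 controls were at 109, 146 and 105 FPKM and the shOFD1 libraries at 147, 151 and 148 FPKM, a change of 0.33 ± 0.13 (adjusted p = 0.08). Control 2 lay just under the knockdown libraries there, and without it the change was 0.47 (adjusted p = 5.03e-07). In PaTu 8988T SQSTM1 was at 929, 937 and 971 FPKM and 905, 977 and 948 FPKM, with overlapping groups and a change of -0.0039 ± 0.039 (adjusted p = 0.947). CALCOCO2, the receptor NDP52, rose by 0.19 in PANC-1 and 0.46 in MIA PaCa-2, and had a change of 0.016 ± 0.051 in PaTu 8988T (adjusted p = 0.824).

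Of the transcription factors, TFEB was low and lower still after induction. In PANC-1 it fell from 2.90, 3.06 and 2.43 FPKM to 1.93, 2.04 and 2.14 FPKM, a change of -0.43 ± 0.11 (adjusted p = 0.00432). MIA PaCa-2 had 0.630, 0.903 and 0.702 FPKM in the controls and 0.509, 0.296 and 0.436 FPKM after induction, and PaTu 8988T had 0.868, 0.910 and 1.04 FPKM and 0.698, 0.529 and 0.483 FPKM, both below the filter and untested. Every knockdown library was below every control of its line, at 41 or more reads on the gene. TFE3, its more abundant relative, passed the test in none of the lines with all libraries, with changes of 0.056 in PANC-1, 0.14 in MIA PaCa-2 and 0.075 in PaTu 8988T, and rose by 0.23 in MIA PaCa-2 without control replicate 2 (adjusted p = 0.000263). Control and shOFD1 libraries did not overlap for 31 of 39 autophagy genes in PANC-1, 23 of 37 in MIA PaCa-2 and 23 of 38 in PaTu 8988T, near the 75%, 59.3% and 51.9% of all genes for which this held. Without control replicate 2 it held for 32 of 37 in MIA PaCa-2, against 82.9% of all genes.

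Few autophagy genes changed the same way in all 3 lines. Of the 37 tested in each, ATG13, NBR1 and TAX1BP1 rose in all, where 2.74% of 9083 genes did, and ATG9A fell in all, where 3.71% did. Only NBR1 kept its calls when libraries were left out or all 18 were fitted together. Such settings lost ATG13 in MIA PaCa-2, ATG9A in MIA PaCa-2 and PaTu 8988T, and TAX1BP1 in PANC-1 and MIA PaCa-2. PIK3R4, ATG2B and TFE3 passed the test in none of the 3 lines with all libraries. Without MIA PaCa-2 control replicate 2, ATG101 joined those that rose in all, where 5.08% of all genes did, ATG9A remained the one that fell in all, where 5.58% did, and only PIK3R4 passed in none. PANC-1 and MIA PaCa-2 shared 12 genes that rose, of 23 and 16, where 11.5% of all genes tested in both rose in both. These were ULK2, ATG13, WIPI1, ATG4A, ATG7, MAP1LC3A, GABARAP, GABARAPL1, NBR1, OPTN, CALCOCO2 and TAX1BP1. PANC-1 and PaTu 8988T shared 5 that rose, of 23 and 9, against 11.7% of all genes, and MIA PaCa-2 and PaTu 8988T shared 3, of 16 and 9, against 3.33%. ATG9A was the only gene shared among those that fell, in each pair of lines, where 13.7%, 10.5% and 4.05% of all genes fell in both, in the same order of pairs. Opposite calls were made for MAP1LC3B between PANC-1 and MIA PaCa-2, for ULK1, ATG4D and GABARAPL2 between PANC-1 and PaTu 8988T, and for VMP1 between MIA PaCa-2 and PaTu 8988T, where 6.2%, 8.25% and 10.6% of all genes had them. For each of these genes, at least 1 of the opposite calls was lost with all 18 libraries in one fit. The test of the difference between the effects passed for all of them but ULK1 (adjusted p = 0.089). Without MIA PaCa-2 control replicate 2, PANC-1 and MIA PaCa-2 shared 18 that rose and 3 that fell, against 20.5% and 21.3% of all genes, and had 4 opposite calls (ATG4C, MAP1LC3B, RB1CC1 and SQSTM1), against 14.8%. MIA PaCa-2 and PaTu 8988T then shared 5 that rose and 1 that fell, against 6.24% and 6.44%, and had 5 opposite calls (ULK1, VMP1, ATG4B, ATG4D and GABARAPL2), against 19%.

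**Figure D4:**
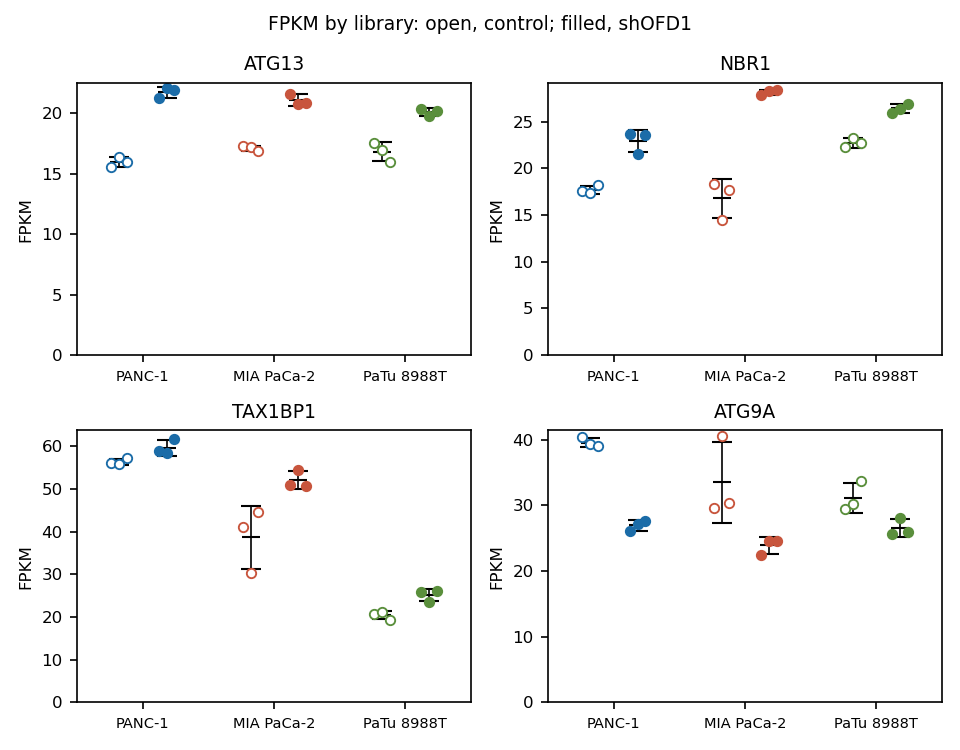
FPKM of the 4 autophagy genes called in the same direction in all 3 lines, in each library (points) with the mean and SD of 3 libraries (black bars), in controls (open) and shOFD1 libraries (filled). For ATG13, NBR1 and TAX1BP1 the filled points lie above the open points of their line, and for ATG9A below them. Control 2 of MIA PaCa-2 is the outlying open point for ATG9A, NBR1 and TAX1BP1. Only NBR1 kept its calls when libraries were left out or all 18 were fitted together.

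Differences between lines were tested directly, as the effect in one line minus that in another in a fit of all 18 libraries. The effect differed between PANC-1 and MIA PaCa-2 for 17 of 37 autophagy genes, where 43.4% of all genes differed, between PANC-1 and PaTu 8988T for 14, where 35.8% differed, and between PaTu 8988T and MIA PaCa-2 for 18, where 52.9% differed. These shares were near the background. The 5 genes with the smallest p were OPTN, WIPI1, GABARAPL1, GABARAP and MAP1LC3B. Their effects were larger in MIA PaCa-2 than in PaTu 8988T. The effect in PaTu 8988T minus that in MIA PaCa-2 was -1.26 for OPTN, -1.43 for WIPI1, -1.44 for GABARAPL1, -0.56 for GABARAP and -0.90 for MAP1LC3B. The fit holds one spread for all lines, while the MIA PaCa-2 controls differed more among themselves than those of the other lines. Without MIA PaCa-2 control replicate 2, the counts were 26, 23 and 24 of 37, against 64.3%, 59% and 70.9% of all genes.

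Other genes of the pathway, none of them among the 39, were counted in the same fits, beside the same shares of all genes: 40.1% higher and 32.2% lower in PANC-1, 18.7% and 21.7% in MIA PaCa-2 (35.4% and 39.8% without control replicate 2), and 20.9% and 18.5% in PaTu 8988T. Of the core autophagy genes outside the set, 7 of 10 tested rose and 2 fell in PANC-1, 5 of 10 rose in MIA PaCa-2 (9 rose and 1 fell without control replicate 2), and 1 of 11 rose and 2 fell in PaTu 8988T. WDR45, also called WIPI4 and a partner of ATG2, rose in all 3 lines, by 0.46, 0.68 and 0.21. ZFYVE1, which encodes the DFCP1 protein of omegasomes, rose from 4.94 ± 0.719 to 9.72 ± 0.0742 FPKM in MIA PaCa-2, a change of 0.97, and EPG5, a tether of autophagosomes and lysosomes, by 0.77 in that line and 0.49 in PANC-1. Genes of autophagosome fusion were mixed, with 7 of 12 higher and 1 lower in PANC-1, 2 higher and 3 lower in MIA PaCa-2 (4 and 5 without control replicate 2), and 4 higher and 2 lower in PaTu 8988T. VPS39, a subunit of the HOPS tether, rose by 0.68 in PANC-1, and VPS33A, another, fell by 0.71 in MIA PaCa-2. VPS33A rose by 0.19 in PaTu 8988T (adjusted p = 0.0158, and up to 0.0631 when 1 library was left out).

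Lysosomal genes, many of them known targets of TFEB, moved downward more often than upward. In PANC-1, 1 of 15 rose and 11 fell, in MIA PaCa-2 2 of 14 rose and 5 fell (3 and 10 without control replicate 2), and in PaTu 8988T 3 of 15 rose and 6 fell. Of all genes, 32.2% fell in PANC-1, 21.7% in MIA PaCa-2 (39.8% without control replicate 2) and 18.5% in PaTu 8988T. The falls in PaTu 8988T include CTSF, at a mean of 1.32 FPKM in the controls and 0.807 FPKM after induction. It was tested there, and counted, only because the controls brought its mean past the filter. CTSB, a lysosomal protease, fell in all 3 lines. It went from 70.1, 72.0 and 69.3 to 43.6, 44.6 and 45.0 FPKM in PANC-1, from 49.6, 62.5 and 49.0 to 28.7, 28.5 and 28.7 FPKM in MIA PaCa-2 and from 84.1, 84.5 and 84.2 to 64.4, 70.5 and 68.3 FPKM in PaTu 8988T. GLA, which encodes a lysosomal galactosidase, fell by 0.74 in PANC-1 and 0.67 in MIA PaCa-2. Of the subunits of the proton pump, ATP6V0D1 rose by 0.34 in PaTu 8988T.

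Upstream sensors and regulators were also counted. Of genes for nutrient and energy sensing, 20 of 31 rose and 5 fell in PANC-1, 4 of 29 rose and 3 fell in MIA PaCa-2 (12 and 8 of 30 without control replicate 2), and 4 of 29 rose and 4 fell in PaTu 8988T. LAMTOR1, which anchors the Ragulator complex on lysosomes, fell by 0.61 in PANC-1 and 0.74 in MIA PaCa-2, and RRAGD, a Rag GTPase, rose in MIA PaCa-2 from 9.81 ± 1.70 to 22.6 ± 0.520 FPKM, a change of 1.21. Of the transcriptional regulators tested, 6 of 8, 5 of 6 and 3 of 8 rose in PANC-1, MIA PaCa-2 and PaTu 8988T, and 2 fell in PANC-1 and 1 in PaTu 8988T. DDIT3, the stress factor CHOP, rose in all 3 lines, from 34.9, 34.4 and 38.8 to 63.2, 64.0 and 66.2 FPKM in PANC-1, from 7.72, 12.5 and 9.37 to 24.0, 23.3 and 23.7 FPKM in MIA PaCa-2, and from 22.8, 23.0 and 23.3 to 41.3, 41.4 and 41.2 FPKM in PaTu 8988T. ATF4, its upstream activator in the integrated stress response, rose by 0.46, 0.82 and 0.34. Each of the 3 shOFD1 libraries of a line was above its controls for both genes. TP53INP1, which binds ATG8 proteins, was at 0.401, 0.268 and 0.340 FPKM in the MIA PaCa-2 controls and 1.86, 1.90 and 1.92 FPKM after induction, and it was tested there, and counted above, only because the shOFD1 libraries brought its mean past the filter. The same held for MITF in PaTu 8988T, at a mean of 0.939 FPKM in the controls and 1.28 FPKM after induction.

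Among receptors for single organelles, BNIP3L, a mitophagy receptor, rose in MIA PaCa-2 and fell in PaTu 8988T and PANC-1. It rose in MIA PaCa-2 from 22.7, 14.3 and 23.1 FPKM to 58.6, 62.7 and 61.3 FPKM, a change of 1.63 ± 0.19 (adjusted p = 0.00111), or 1.41 (adjusted p = 1.65e-08) without control replicate 2. It fell in PaTu 8988T from 67.0, 68.1 and 62.9 FPKM to 52.0, 46.0 and 53.4 FPKM, a change of -0.39 ± 0.059 (adjusted p = 0.000896). BNIP3, its paralogue, fell by 0.64 in PaTu 8988T and 0.29 in PANC-1 and was listed at 0 in MIA PaCa-2. CALCOCO1, a receptor of the endoplasmic reticulum, rose by 0.69 in PANC-1 and 0.93 in MIA PaCa-2. Over this list 4 of 14 rose and 4 fell in PANC-1, 4 of 11 rose in MIA PaCa-2 (5 rose and 4 fell without control replicate 2), and 3 of 14 fell in PaTu 8988T. Of 6 genes of centriolar satellites, OFD1 included, 2 rose and 2 fell in PANC-1, 1 fell in MIA PaCa-2 (2 rose and 3 fell without control replicate 2) and 3 fell in PaTu 8988T.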

How the data were processed

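Total RNA of 18 libraries was sequenced on an Illumina NovaSeq according to the study's methods. The labels name an RNeasy extraction and a SMARTer kit, and the methods name TRIzol and a VAHTS kit, so the protocol and the strand setting of the counting were not settled. The study's methods give alignment with HISAT2 and counting with HTSeq-count. The submitters' processing notes name hg38 beside the mouse builds GRCm38 and mm10. The authors deposited one table of FPKM values for 26668 symbols, and every one of its sample columns was used (0 were left out). Groups came from the sample titles. In each line, FPKM values were whole multiples of what 1 read is worth, and the recovered totals served only to describe depth. Gene lengths implied by these steps were the same within 1% in all lines for 26 of the 39 autophagy genes and differed for 13, so changes were compared between lines and levels only within a line.

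The log2 of FPKM plus 0.1 was fitted per line using limma (version 3.58.1, under R version 4.3.3, files read with data.table version 1.17.8), with a variance trend, over genes with a mean of at least 1 FPKM (10902 genes in PANC-1, 10758 in MIA PaCa-2, 10698 in PaTu 8988T), and p-values were adjusted by Benjamini-Hochberg over those genes, two-sided. The deposited values were FPKM, and no count model was run on the reads recovered from them. Differences between lines were contrasts in one model of the 18 libraries, over the 9083 genes tested in every line. The fits were tested on simulated data. Alternatives were pseudocounts of 1 and 0.01, no filter or a minimum of 5 FPKM, median-of-ratios or upper-quartile scaling, no variance trend, all libraries in one fit, a replicate block and leaving out each library. Positions came from GENCODE on GRCh38 and promoters from RefSeq (GRCh38.p14). Summaries and figures were made in Python 3.11.15 with pandas 2.3.3, numpy 2.4.6, scipy 1.17.1 and matplotlib 3.10.9.

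The 39 genes and the companion lists were chosen with earlier results of these data known. Values in every library were given for genes past 2-fold in any line, called alike in all 3 lines, among the 3 smallest p in a direction and line, or among the 5 smallest p between lines, and for OFD1. From each companion list, genes among the 3 largest changes called in a line were named, some of them also with their values in other lines. ATG10, ATG2A and TFEB were given by library although outside that rule, as genes under the filter or decided by 1 library.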

Additional observations from a re-analysis of the deposited data

Results flagged for a closer look

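For 5 autophagy genes, picked for their smallest p, the effect of the knockdown differed between lines by a test of the difference itself. The share of autophagy genes whose effects differed was near that of all genes. Of all genes, 43.4% differed for PANC-1 minus MIA PaCa-2, 35.8% for PANC-1 minus PaTu 8988T and 52.9% for PaTu 8988T minus MIA PaCa-2. OPTN had a difference of -1.26 (adjusted p = 1.11e-09) for PaTu 8988T minus MIA PaCa-2, of -0.99 for PANC-1 minus MIA PaCa-2 and of 0.27 for PANC-1 minus PaTu 8988T. WIPI1 differed by -1.43 for PaTu 8988T minus MIA PaCa-2 and by -1.25 for PANC-1 minus MIA PaCa-2. GABARAPL1 differed by -1.44 for PaTu 8988T minus MIA PaCa-2, by -0.80 for PANC-1 minus MIA PaCa-2 and by 0.64 for PANC-1 minus PaTu 8988T, so its effects were ordered MIA PaCa-2, PANC-1, PaTu 8988T. GABARAP differed by -0.56 for PaTu 8988T minus MIA PaCa-2 and by 0.39 for PANC-1 minus PaTu 8988T, and MAP1LC3B by -0.98 for PANC-1 minus MIA PaCa-2 and -0.90 for PaTu 8988T minus MIA PaCa-2. In each of these 12 tests the adjusted p was 0.00656 or less. The other tests of these genes missed the threshold. They were PANC-1 minus PaTu 8988T for WIPI1 (adjusted p = 0.21) and MAP1LC3B (adjusted p = 0.718), and PANC-1 minus MIA PaCa-2 for GABARAP (adjusted p = 0.103). Without MIA PaCa-2 control replicate 2, the differences of OPTN, WIPI1, GABARAPL1 and MAP1LC3B between PaTu 8988T and MIA PaCa-2 were -1.20, -1.37, -1.57 and -0.73, and that of GABARAP was -0.49.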

How the results depend on the processing

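Limits of design and depth come first. With 3 libraries a group, a change that misses the threshold is not shown to be absent, and TFEB and ATG10 were too low to test in some lines. Counts of calls depended on single libraries in MIA PaCa-2 and, for other pathway genes, in PaTu 8988T. Leaving out 1 library at a time gave 8 to 26 autophagy genes that rose and 0 to 6 that fell in MIA PaCa-2, with the high ends set by leaving out control replicate 2 and the low ends by leaving out a shOFD1 library (8 without shOFD1 replicate 3), and 12 to 38 companion genes that rose and 5 to 28 that fell there. The OFD1 change in that line was -0.76 to -0.52, with the call lost without control 1, control 3 or any shOFD1 library. In PaTu 8988T, 7 to 15 companion genes rose and the median change of the autophagy genes was 0.052 to 0.083. The autophagy genes whose effects differed numbered 11 to 26 for PANC-1 minus MIA PaCa-2 and 10 to 23 for PANC-1 minus PaTu 8988T. Fitting all 18 libraries together, over fewer genes and with one spread, gave 2 autophagy genes lower in PANC-1 with 29 companion genes higher and 14 lower, 4 autophagy and 19 companion genes lower in MIA PaCa-2, and 5 autophagy genes higher and 0 lower in PaTu 8988T with 6 companion genes higher and 6 lower. Without a filter, OFD1 in MIA PaCa-2 kept its change of -0.61 but lost its call (adjusted p = 0.0504), 0 autophagy genes fell there and 9 companion genes rose in PaTu 8988T, and the cause was not tested. Median-of-ratios scaling brought the median in PANC-1 to 0.15. WIPI1 in PaTu 8988T, near 0 and not called, was -0.0031 to 0.078 when 1 library was left out, below 0 without control replicate 2 or shOFD1 replicate 2. Deviations of same-numbered libraries of a line had correlations of -0.111 to 0.13, and those of differently numbered ones -0.231 to 0.226. Such values, over 3 libraries a group, cannot show whether the replicate numbers pair samples. With the replicate number as a block, 11 autophagy genes differed for PANC-1 minus MIA PaCa-2, and the calls of ATG13 in MIA PaCa-2 (adjusted p = 0.0816) and of TAX1BP1 in MIA PaCa-2 (adjusted p = 0.0741) were lost. Over the alternatives, 391 of the summary values and 887 of the 925 values of single genes kept their direction and side of the threshold or stayed within range of the main value. Of the other summary values, 38 moved and 6 were weaker. Of the other values of single genes, 33 were weaker, 3 stronger and 2 reversed.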

Other observations

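A few values outside the comparisons were noticed after they were seen. MAP1LC3C, the least abundant LC3 gene, was below the filter in PANC-1, at 0.0874, 0.102 and 0.146 FPKM in the controls and 0.795, 1.08 and 0.440 FPKM after induction, from 5 to 56 reads a library, with all 3 shOFD1 libraries above all controls. It was listed at 0 in MIA PaCa-2 and had at most 2 reads in PaTu 8988T. WDR45B, the paralogue of WDR45, rose by 0.16 in PANC-1 and 0.29 in MIA PaCa-2 and fell by 0.24 in PaTu 8988T, where WDR45 rose. The gene length implied for OFD1 was 4150 bases in PANC-1 and 9312 bases in the other lines.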
